A study of Homo sapiens with 16 samples.

Results

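The stretch of genes from 60 to 100 kb downstream of the transcription start site (TSS) was examined in DRB/GRO-seq profiles of nascent RNA from RECQL5-shutoff cells. It was chosen by distance alone, as the 40000 positions from 60 kb up to 100 kb among the 122001 positions of each profile, and not by a cut on measured values. The 16 profiles came from HEK293T-Rex cells, which derive from human embryonic kidney and express the tetracycline repressor. All of them carry a constitutive shRNA against endogenous RECQL5 and a form of RECQL5 that escapes the shRNA and is switched on by doxycycline. In the cells called wild-type (WT), doxycycline was set to keep this RECQL5 at a physiological level, whereas in the knockdown (KD) cells it had been left out for 4 days according to the labels. WT therefore stands for shRNA-treated cells with RECQL5 put back, not for untouched cells. Clones 15 and 18, each grown from a single colony, were each sampled as WT and as KD before release from DRB (0 min) and 10, 25 and 40 min after it. Every genotype thus had n = 2 clones at each time, and the 4 combinations of genotype and clone are called series. The labels give the DRB dose as 100 mM and attach the minutes to doxycycline, while the study's methods give the dose in micromolar and the minutes as time after DRB removal, which is how they are used here. The profiles are averages over genes, so neither the level of RECQL5 nor markers of the cell line could be checked in them.

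DRB inhibits P-TEFb, the kinase that lets RNA polymerase II (RNAPII) leave the promoter-proximal region, so that new transcripts stop near the start of genes while polymerases already under way run off. When the drug is washed out, polymerases set off together and cross long genes as a wave. In the run-on reaction engaged polymerases add a labelled nucleotide to the RNA they hold, and the reads therefore show where polymerases are engaged. RECQL5 is a DNA helicase that binds RNAPII and is known to restrain transcript elongation. The distal stretch addresses the question of how far the wave had travelled in the presence and absence of RECQL5, since it lies beyond the wave at the early times and holds its leading edge at the last.

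The value at each position is a normalized read depth averaged over long genes (at least 30 kb), with each library scaled to 20000000 reads. The depth from 60 to 100 kb corresponded to 2185739 to 6251797 reads per library, with a median of 3078884. Coverage trimmed before averaging is not counted. Counting error alone was at most 0.0676% of the mean depth of the stretch and 0.191% of that of a 5 kb bin. It covers counting only, since copies of one molecule are not independent reads, and the differences between clones described below were many times larger. Fewer genes are averaged over real transcription at greater distances. By the GENCODE 44 annotation of GRCh37, which has 8888 protein-coding genes whose longest transcript reaches 30 kb, 60.2% still ran at 60 kb, 52.9% at 70 kb, 46.9% at 80 kb, 41.3% at 90 kb and 37.4% at 100 kb. Positions past the end of a gene remain in the average.

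Libraries of 2 series stood apart. In KD of clone 15 the depth over the first 5 kb, where engaged RNAPII gathers under DRB, was 1.86 at 0 min and 2.47 at 10 min. It was between 5.60 and 8.14 at 0 min and between 7.04 and 14.4 at 10 min in the other series. WT of clone 15 at 40 min had the lowest depth of the 4 samples throughout the distal stretch. Results are therefore given by series, and with and without these series where they decide a value.

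**Figure D1:**
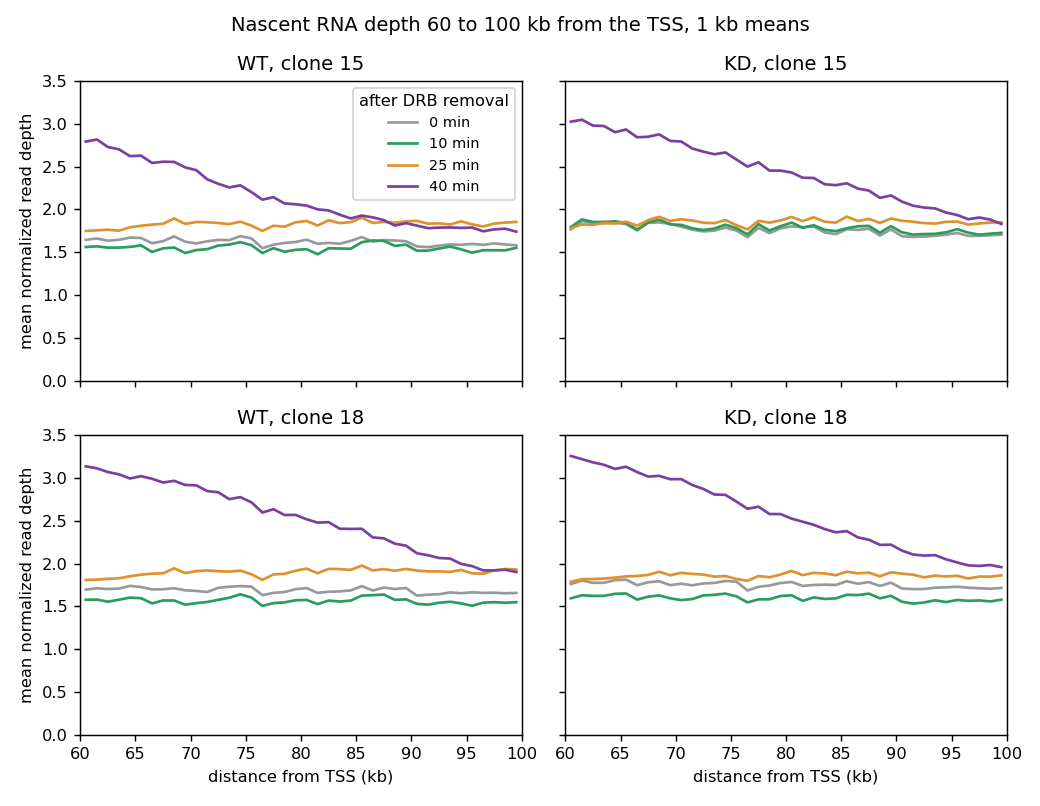
Mean normalized read depth (y axis, 1 kb means) against distance from the TSS in kb (x axis) for WT and KD of clones 15 and 18, with 1 line for each time after DRB removal. The lines at 0, 10 and 25 min are nearly level and stay below a depth of 2, while the lines at 40 min start near 3 at 60 kb and fall to less than 2 at 100 kb, lowest in WT of clone 15.

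Before release, the distal stretch held a nearly level depth. At 0 min the mean depth from 60 to 100 kb was 1.62 in WT of clone 15, 1.69 in WT of clone 18, 1.76 in KD of clone 15 and 1.75 in KD of clone 18 (1.71 ± 0.0651, SD, n = 4). Both KD samples thus lay above both WT samples, by 0.139 in clone 15 and by 0.0666 in clone 18. At 10 min, when the wave was still close to the promoter, the depth was 1.55 in WT of clone 15, 1.56 in WT of clone 18, 1.78 in KD of clone 15 and 1.60 in KD of clone 18. It was 0.0717 to 0.156 lower than at 0 min in WT of both clones and in KD of clone 18, and was higher by 0.0247 in KD of clone 15. The mean change of −0.0813 ± 0.0787 (SD, n = 4) did not pass the threshold of 0.05 by the two-sided exact permutation test (p = 0.286), and in none of the 8 distal bins, nor in any of the 24 bins of 5 kb from the TSS to 120 kb (0%), did the times not overlap. Without KD of clone 15 the mean change was −0.117.

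The level at these early times had a gentle downward tilt. At 0 min the least-squares slope was −0.0169 depth units per 10 kb in WT of clone 15, −0.0150 in WT of clone 18, −0.0372 in KD of clone 15 and −0.0184 in KD of clone 18. KD of clone 15 therefore fell more steeply than the other 3 samples, which lay close together. At 10 min the slopes were −0.00286 and −0.00661 in WT of clones 15 and 18, and −0.0331 and −0.0148 in KD. Some 1 kb steps up and down recurred between libraries, with the lowest correlations at 40 min. At that time the profile of WT of clone 15 was curved, so its departures from a line are not only 1 kb steps. Its SD around the line was 0.0851, against 0.0283 to 0.0374 in the other series. Around a straight line, the 1 kb means of the 4 series had a median Pearson r over 6 pairs and 40 bins of 0.755 before release, 0.705 after 10 min, 0.870 after 25 min and 0.568 after 40 min. The lowest pair had 0.409, 0.337, 0.815 and −0.221 in the same order. These correlations are across positions of averages over one set of genes, which share annotation and mappability, and positions are not independent replicates. The highest mean departures, taken as means over all 16 profiles, were 0.0434 at 68 to 69 kb, 0.0432 at 85 to 86 kb and 0.0351 at 74 to 75 kb, and they lay above the line in 15, 15 and 14 of the 16 profiles. These bins were picked by their mean over the same profiles, so the counts are no separate evidence that the steps recur.

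At 25 min, with the bulk of the wave still nearer to the TSS, the depth was 1.83 in WT of clone 15, 1.90 in WT of clone 18, 1.85 in KD of clone 15 and 1.86 in KD of clone 18. These 4 values lay above all 4 values at 0 min. The rise over 0 min was 0.209 and 0.212 in WT of clones 15 and 18, and 0.0947 and 0.105 in KD, a mean of 0.155 ± 0.0638 (SD, n = 4, exact permutation test, two-sided, p = 0.0286). Paired by series the rise was positive in 4 of 4 (exact sign-flip permutation test, p = 0.125, where 4 pairs allow no smaller value). The direction of this change rested on the scaling to total reads. When each profile was scaled to the same depth over 110 to 120 kb, the mean change from 0 to 25 min became −0.133 (exact permutation test, two-sided, p = 0.0286).

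The rise at 25 min was not even along the stretch. Its mean over the 4 series was 0.0617 at 60 to 65 kb, 0.151 at 70 to 75 kb and 0.212 at 90 to 95 kb. In KD of clone 15 the first bin was lower at 25 min than at 0 min, by −0.0104. Farther on, from 100 to 120 kb, the rise was 0.325 and 0.329 in WT of clones 15 and 18, and 0.215 and 0.193 in KD. The rise in the distal stretch was smaller than in that far window in 4 of 4 series, by 0.110 ± 0.0150 (SD, n = 4, exact sign-flip permutation test, p = 0.125, a comparison chosen after the values were seen). The slope over the whole stretch accordingly turned from negative at 0 min to weakly positive at 25 min in all 4 series. It was 0.0150 and 0.0201 depth units per 10 kb in WT of clones 15 and 18 and 0.00451 and 0.00649 in KD. The upward tilt lay in the nearer part. From 60 to 80 kb the slope at 25 min was 0.0126 to 0.0349, whereas from 80 to 100 kb it was −0.0290 to −0.0117. Of the 24 bins of 5 kb from the TSS to 120 kb, 70.8% were higher at 25 than at 0 min with no overlap between the times, and in the distal stretch 7 of 8 were, all but the bin at 60 to 65 kb. Bins lower at 25 min made up 8.33% of the 24 and 0 of the 8. The rise before the wave was therefore not particular to 60 to 100 kb.

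**Figure D2:**
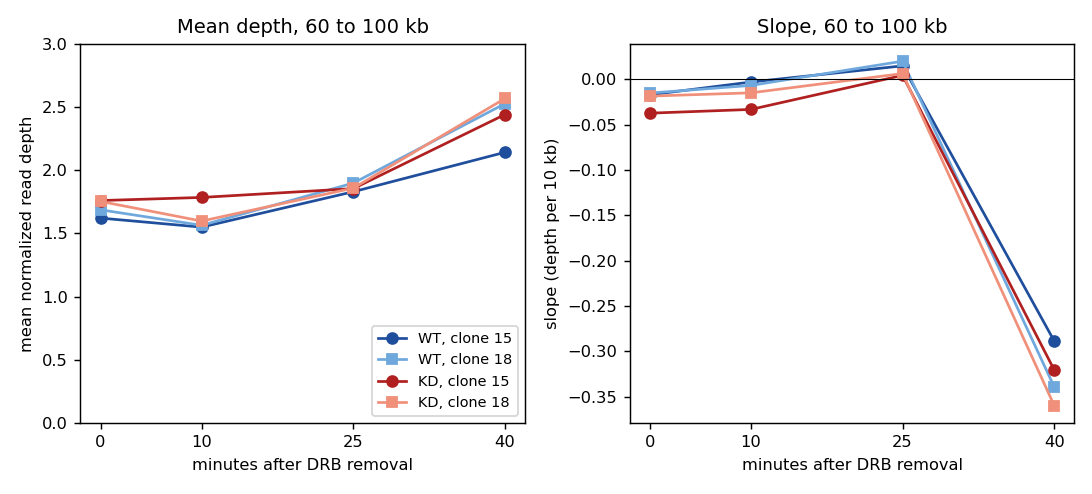
Mean normalized read depth over 60 to 100 kb (left) and its least-squares slope in depth per 10 kb (right) against minutes after DRB removal, with 1 line for each series and 1 point for each library. The depth rises from 1.71 at 0 min to 2.42 at 40 min on average, and the slope drops from close to 0 to between −0.289 and −0.360 at 40 min.

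By 40 min the wave had entered the distal stretch in all 4 series. The mean depth was 2.14 in WT of clone 15, 2.53 in WT of clone 18, 2.44 in KD of clone 15 and 2.57 in KD of clone 18. WT of clone 15 was the low sample, and the other 3 lay close together. Over its own 0 min profile the depth had gained 0.521 in WT of clone 15, 0.841 in WT of clone 18, 0.681 in KD of clone 15 and 0.815 in KD of clone 18. These are rises of 1.32-, 1.50-, 1.39- and 1.46-fold. The mean gain was 0.715 ± 0.147 (SD, n = 4), and the times did not overlap (exact permutation test, two-sided, p = 0.0286, or 0.0357 adjusted over the 5 comparisons of times by the Benjamini-Hochberg method). Paired by series, the gain was positive in 4 of 4 (exact sign-flip permutation test, p = 0.125). The call depended on which scaling was used. With equal depth over 110 to 120 kb the mean gain was 0.454 and positive in 4 of 4 series (exact permutation test, two-sided, p = 0.0286). With every profile scaled to the same depth from −2 to 120 kb, which also counts the gain nearer to the TSS, the mean change was −0.179 (exact permutation test, two-sided, p = 0.229).

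Against 25 min the gain was 0.312 in WT of clone 15, 0.629 in WT of clone 18, 0.587 in KD of clone 15 and 0.710 in KD of clone 18. The mean was 0.560 ± 0.173 (SD, n = 4, exact permutation test, two-sided, p = 0.0286, and exact sign-flip permutation test paired by series, p = 0.125). With equal depth over 110 to 120 kb it was 0.587 (exact permutation test, two-sided, p = 0.0286). With whole-profile scaling it was 0.196 and no longer past the threshold (p = 0.0857 by the exact permutation test). The gain was concentrated in the nearer part of the stretch. From 60 to 80 kb alone it was 0.905 (exact permutation test, two-sided, p = 0.0286), and from 80 to 100 kb alone it was 0.214 and not past the threshold (exact permutation test, two-sided, p = 0.114).

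By 5 kb bins, the mean gain of 40 over 0 min was 1.25 at 60 to 65 kb, 1.12 at 65 to 70 kb, 0.960 at 70 to 75 kb and 0.777 at 75 to 80 kb. It went on falling to 0.602 at 80 to 85 kb, 0.444 at 85 to 90 kb, 0.341 at 90 to 95 kb and 0.223 at 95 to 100 kb. Each of these bins was higher at 40 min in 4 of 4 series, and in 8 of 8 the times did not overlap. Since the same held for 95.8% of the 24 bins from 0 to 120 kb, the count sets the distal stretch apart in no way. In the first bin the gain was 1.08 in WT of clone 15, 1.36 in WT of clone 18, 1.15 in KD of clone 15 and 1.40 in KD of clone 18. In the last bin it was 0.171, 0.270, 0.186 and 0.265 in the same order, so that the series lay much closer together there.

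Over 25 min the gain fell more steeply along the stretch, with a mean slope of −0.338 depth units per 10 kb against −0.305 over 0 min. Both gains use the same 40 min profile, so this difference lies in the profile subtracted and not in the leading edge. The mean gain was 1.19 at 60 to 65 kb, 0.423 at 80 to 85 kb, 0.129 at 90 to 95 kb and 0.0315 at 95 to 100 kb. The times did not overlap in 5 of the 8 distal bins, against 45.8% of all 24 bins. No distal bin was lower at 40 min without overlap, against 16.7% of the 24. WT of clone 15 differed from the other series in where its depth at 40 min met that at 25 min. Its depth at 40 min first fell to its own 25 min level at 88 kb, and 12 of its 40 bins of 1 kb were at or below that level. In WT of clone 18 and KD of clone 15 this was first so at 98 and 99 kb, in 2 bins and 1 bin, and in KD of clone 18 it did not occur before 100 kb. In the last 2 bins of 5 kb WT of clone 15 was lower at 40 than at 25 min, by −0.0539 and −0.0694.

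**Figure D3:**
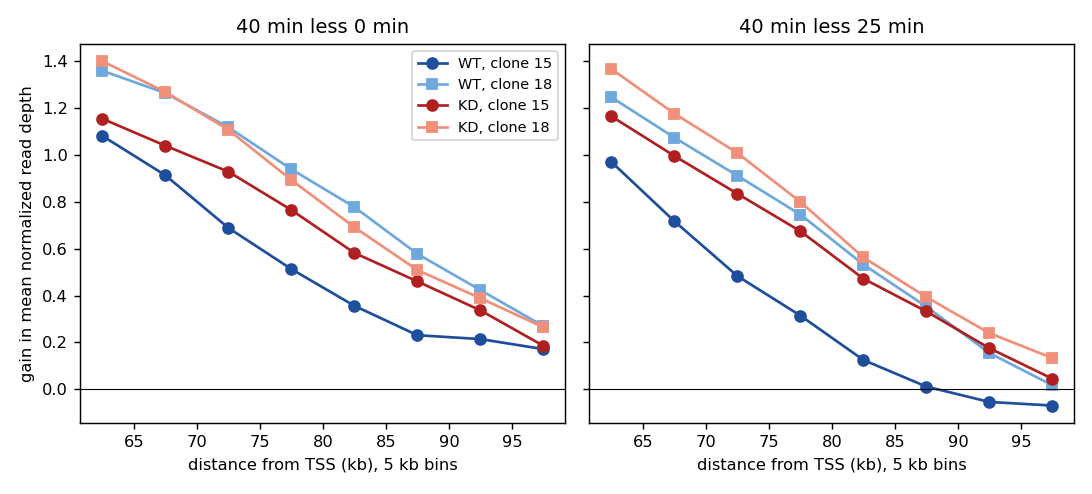
Gain in mean normalized read depth in 5 kb bins (y axis) against distance from the TSS in kb (x axis), as 40 min less 0 min (left) and 40 min less 25 min (right) of the same series, with 1 line for each series. Each line falls along the stretch, and WT of clone 15 is lowest and goes below 0 beyond 90 kb in the right panel.

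The slope at 40 min put the decline into a single figure. It was −0.289 depth units per 10 kb in WT of clone 15, −0.339 in WT of clone 18, −0.320 in KD of clone 15 and −0.360 in KD of clone 18 (−0.327 ± 0.0302, SD, n = 4). It was steeper than at 0 min by −0.305 ± 0.0330 on average (SD, n = 4, exact permutation test, two-sided, p = 0.0286, and exact sign-flip permutation test paired by series, p = 0.125). WT of clone 15 was again the odd one in shape. From 60 to 80 kb it had the steepest slope of the 4, −0.411 against −0.302 to −0.363, and from 80 to 100 kb the shallowest, −0.145 against −0.314 to −0.358. Its largest drop between neighbouring 5 kb bins, 0.225, lay between the bins at 65 to 70 and 70 to 75 kb. The largest drops were at 70 to 80 kb in KD of both clones, 0.190 and 0.240, and at 85 to 95 kb in WT of clone 18, 0.222.

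The distance at which the gain over 0 min had fallen to 50% of its level at 60 to 65 kb was taken as a second measure of the decline. It was 77.7 kb in WT of clone 15, 81.6 kb in KD of clone 15, 82.5 kb in KD of clone 18 and 85.3 kb in WT of clone 18. The KD samples thus lay between the WT samples. The outer part of the stretch, 80 to 100 kb, held 23.3% of the summed gain in WT of clone 15, 30.4% in WT of clone 18, 28.7% in KD of clone 15 and 28.4% in KD of clone 18. Relative to the gain of the same series at 10 to 30 kb, the gain at 60 to 65 kb was 38.8% in WT of clone 15, 70.0% in WT of clone 18, 56.8% in KD of clone 15 and 68.8% in KD of clone 18. At 95 to 100 kb the corresponding figures were 6.15%, 13.9%, 9.14% and 13.0%. The gain at 10 to 30 kb was itself 2.79, 1.94, 2.03 and 2.03 in the same order. The low percentages of WT of clone 15 thus rest on its high gain near the TSS as well as on its distal gain.

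The decline in gain was set beside the loss of running genes. From the bin at 60 to 65 kb to that at 95 to 100 kb the share of long genes still running fell from 58.7% to 38.5%, that is to 65.5% of its first value. The gain fell to 17.7% ± 2.01 of its first value (SD, n = 4), with a range of 15.9% to 19.8%. Divided by the share of running genes, the mean gain was 2.13 at 60 to 65 kb and 0.579 at 95 to 100 kb. It thus fell to 27.0% ± 3.06 of its first value, with a range of 24.2% to 30.3%. The gain in the last bin, 0.223 before the division, was close to the 0.208 from 100 to 120 kb. With equal depth over 110 to 120 kb, which fixes part of that far window, the far gain was −0.0144. The gain left at the far end thus includes any difference in level between libraries, and that part was not tested. This correction treats all annotated long genes as transcribed and uses a newer annotation than the authors did, and genes that were silent could not be set aside.

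**Figure D4:**
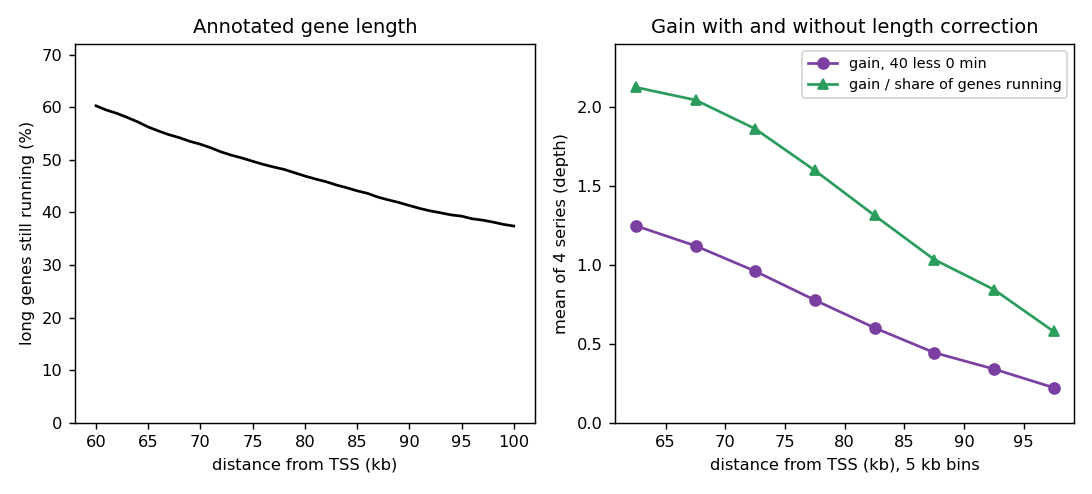
Percent of annotated long genes that still run at each distance from the TSS in kb (left), and the mean gain of 40 over 0 min in 5 kb bins over 4 series, as measured and divided by that share (right). The share falls from 60.2% to 37.4%, and the gain falls along the stretch with or without the correction.

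Compared with its neighbours, the distal stretch had an intermediate gain. The gain of 40 over 0 min from 30 to 60 kb was 1.77 on average and exceeded the distal gain in 4 of 4 series, by 1.06 ± 0.207 (SD, n = 4). From 100 to 120 kb the gain was 0.208, and the distal gain exceeded it in 4 of 4 series, by 0.506 ± 0.144 (SD, n = 4). Both differences had p = 0.125 by the exact sign-flip permutation test over the 4 pairs and p = 0.0286 by the exact permutation test without pairing. The far window was higher at 40 than at 0 min but not than at 25 min, with mean depths of 1.65 at 0 min, 1.92 at 25 min and 1.86 at 40 min.

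RECQL5 depletion was then compared with its expression within each clone. At 40 min KD was above WT from 60 to 100 kb by 0.299 in clone 15 and by 0.0409 in clone 18, a log2 ratio of 0.19 and 0.02. In clone 18 the direction depended on the scaling, with −0.01 for equal depth over 110 to 120 kb and −0.03 over the whole profile. The mean log2 ratio was 0.11 and the SD of the 2 clones' ratios was 0.12 (p = 0.667 by the two-sided exact permutation test). With 2 samples against 2 the smallest p is 0.333, and with the clone as a block it is 0.5, so that no KD effect could pass the threshold. In clone 15 KD exceeded WT in 8 of 8 bins, from 0.253 at 60 to 65 kb through a maximum of 0.390 at 75 to 80 kb to 0.125 at 95 to 100 kb. In clone 18 it did so in 6 of 8 bins, with 0.113 at 60 to 65 kb and differences of −0.0113 and −0.00927 at 80 to 85 and 85 to 90 kb. No bin of the 8 was higher in both KD samples than in both WT samples, nor was any of the 24 bins from 0 to 120 kb (0%).

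The spread between the WT clones was larger than the difference between genotypes. At 40 min WT of clone 18 exceeded WT of clone 15 by 0.385 on average and by up to 0.498, at 75 to 80 kb. KD of clone 18 exceeded KD of clone 15 by 0.127. The low level of WT of clone 15 therefore decides the mean KD ratio. Without that series the log2 ratio at 40 min was −0.01, and without WT of clone 18 it was 0.23.

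**Figure D5:**
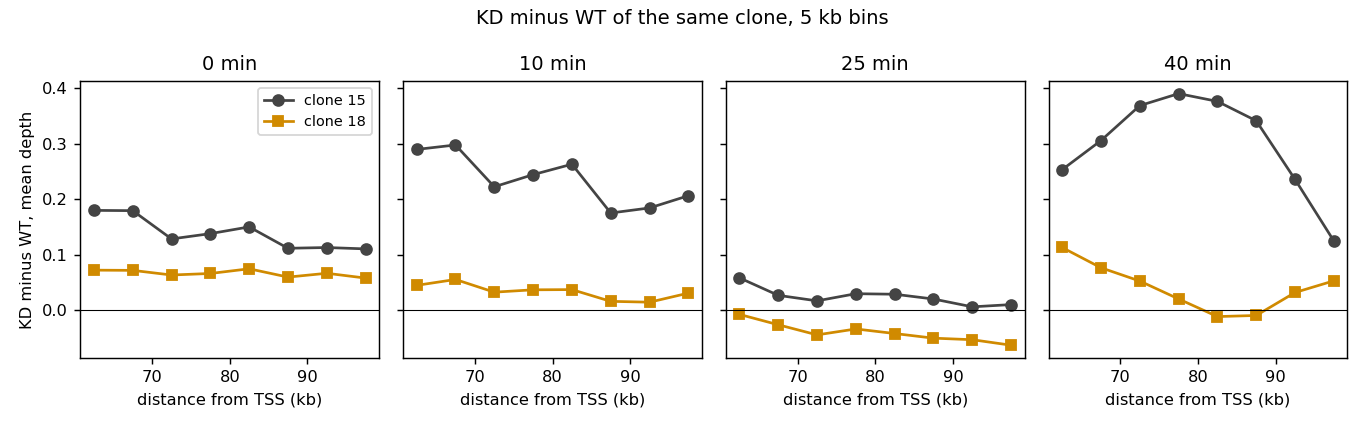
KD minus WT of the same clone in mean normalized read depth (y axis) in 5 kb bins against distance from the TSS in kb (x axis), with 1 panel for each time after DRB removal and 1 line for each clone. At 40 min clone 15 forms a broad hump up to 0.390 while clone 18 stays between −0.0113 and 0.113.

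KD was also above WT at 0 and 10 min, but not in both clones at 25 min. At 0 min the log2 ratio of KD to WT was 0.12 in clone 15 and 0.06 in clone 18, and at 10 min it was 0.20 and 0.03. By the exact permutation test both times had the smallest p possible, 0.333. With equal depth over 110 to 120 kb the mean log2 ratio at 0 min was 0.03 instead of 0.09, and 0.01 in clone 18. At 10 min it was 0.07 instead of 0.12. Whole-profile scaling moved the mean the other way, to 0.19 at 0 min and 0.34 at 10 min. All 8 bins were higher in both KD samples than in both WT samples at 0 min and at 10 min. Such bins made up 91.7% of the 24 bins from 0 to 120 kb at 0 min and 83.3% at 10 min, while bins lower in both KD samples made up 4.17% at each time and 0 of the 8, so that the excess ran along the whole profile. Over the first 5 kb the depth at 0 min was 1.86 and 5.60 in KD of clones 15 and 18, against 8.14 and 7.17 in WT. At 10 min it was 2.47 and 7.04 against 14.4 and 11.2, and at 25 min 5.17 and 5.24 against 5.87 and 5.74. From 0 to 10 min the distal excess rose from 0.139 to 0.235 in clone 15 and fell from 0.0666 to 0.0336 in clone 18. The part of the promoter-proximal difference in the distal excess was not tested. At 25 min the log2 ratio was 0.02 for clone 15 and −0.03 for clone 18 (p = 1 by the two-sided exact permutation test). None of the 8 bins was then higher in both KD samples, against 12.5% of the 24, and none was lower in both, against 33.3%.

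Measured from its own 0 min level, the wave brought a larger gain in KD than in WT in clone 15 and not in clone 18. The gain of 40 over 0 min was 0.160 larger in KD than in WT of clone 15 and differed by −0.0257 in clone 18, a mean of 0.0673 with an SD of 0.132 (exact permutation test, two-sided, p = 1). Over 25 min the gain was larger in KD in both clones, by 0.274 and 0.0807, a mean of 0.178 with an SD of 0.137 (p = 0.667 by the exact permutation test). Without WT of clone 15 this mean was 0.0191, and with whole-profile scaling it was 0.00943. Clone 18 turned to −0.0540 when scaled over 110 to 120 kb and to −0.105 with whole-profile scaling. The slope at 40 min was steeper in KD in both clones, by −0.0319 in clone 15 and −0.0205 in clone 18. The mean was −0.0262 (p = 0.667 by the exact permutation test), and −0.000911 without WT of clone 15. Fitted over 60 to 90 kb, the difference in slope was 0.0382 in clone 15 and −0.0518 in clone 18, a mean of −0.00679. The share of the gain beyond 80 kb was 5.37 percentage points higher in KD of clone 15 and differed by −2.02 points in clone 18, and the 50% distance lay 3.98 kb farther out in KD of clone 15 and differed by −2.76 kb in clone 18. For both of these the exact permutation test gave p = 1. Without WT of clone 15 the mean differences turned to −0.0926 in the gain over 0 min, −1.88 points in the outer share and −3.21 kb in the 50% distance. All 9 comparisons of KD with WT had an adjusted p of 1 by the Benjamini-Hochberg method.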

How the data were processed

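Nascent RNA was profiled by DRB/GRO-seq in 16 samples. Per the labels and the study's methods, the authors used CASAVA 1.8.2 and BWA 0.5.9 (versions from the submitters' processing notes), aligned single-end reads to hg19, discarded those on rRNA or in blacklisted regions, lengthened the rest to 250 bp and normalized every library to 20000000 reads. The deposited signal (coverage) is a trimmed mean of this depth over the longest transcripts of protein-coding genes of at least 30 kb, at each base pair from −2 to 120 kb relative to the TSS. The libraries were strand-specific, and the strand counted and the Ensembl release are not given in the sources used here. The scaling fixes total reads, so a library with more reads elsewhere has a lower depth throughout, and the averaging leaves no value for single genes.

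Depth was averaged in 1 kb and 5 kb bins over 60 to 100 kb. Slopes are least-squares fits to 40 means of 1 kb. All values of each profile were whole multiples, within 0.01, of a step that equals 1 read, and reads were counted from it. Since the signal is a trimmed mean, coverage that was trimmed is not in these counts. The counts and the counting error are therefore approximate. Genotypes and times were compared by exact permutation tests, two-sided, at a threshold of 0.05. Each sample is 1 library from 1 culture, so p-values for KD against WT rest on the spread between these 2 clones. Comparisons of times and of windows pooled WT and KD of both clones as separate samples, so their p-values and SDs mix genotype with clone. The unpaired tests also ignore that the times of a series belong together. Tests paired by series keep this link but still count WT and KD of a clone separately. Only 2 clones thus lie behind every p-value. Clones pair WT and KD because a number marks the same clone in the labels. The deviations of WT and KD from their group means had r of 0.229, −0.224, 0.225 and 0.267 at 0, 10, 25 and 40 min across 40 bins. Gene lengths were read from GENCODE 44 for GRCh37 (equivalent to hg19). Alternatives were other scalings, medians, slopes, backgrounds and heights, a length correction, the replicate block and leaving out clones or series. Leaving out single series and the crossed pairing were added after seeing the data. The stretch, the bins and the tests were chosen with earlier results of these data known. By the rule for named items, no gene is named and every 5 kb bin is covered. Computations were run in Python 3.11.15, using pandas 2.3.3, numpy 2.4.6 and, for plots, matplotlib 3.10.9.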

Additional observations from a re-analysis of the deposited data

Results flagged for a closer look

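The slope at 0 min of KD of clone 15, −0.0372 depth units per 10 kb, lay apart from the other 3 samples, which lay between −0.0184 and −0.0150. It was 1 outlying value among 14 groups of 4 tested, where chance gives about 0.7. The same library had the low depth over the first 5 kb given above, and whether these belong together was not tested.

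For 4 results the KD minus WT difference had opposite signs in the clones. Clone 15 less clone 18 was 0.04997 for the log2 ratio at 25 min, 0.186 for the gain of 40 over 0 min, 7.39 percentage points for the share of the gain beyond 80 kb, and 6.74 kb for the 50% distance. With 1 pair in each clone these differences between clones were not tested.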

How the results depend on the processing

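Time comparisons depended on which scaling was used and on the pairing. With equal depth over 110 to 120 kb the gain of 40 over 0 min was 0.454 and that over 25 min 0.587, both past the threshold (exact permutation test, two-sided, p = 0.0286). With equal depth over the whole profile the gain of 40 over 0 min was −0.179, the gain over 25 min 0.196 and no longer past the threshold, and the change from 0 to 25 min −0.375, which was −0.133 with equal depth over 110 to 120 kb. With series as a replicate block, the gains of 0.715 and 0.560, the change of 0.155 and the slope change of −0.305 kept their values at p = 0.125 (exact sign-flip permutation test), and without a replicate block the differences from 30 to 60 kb (−1.06) and from 100 to 120 kb (0.506) passed at p = 0.0286 (exact permutation test). From 80 to 100 kb alone the gain over 25 min was 0.214, and corrected for gene length the gain over 0 min was 1.42. With the clone as a replicate block or crossed at 10 min, 0 KD comparisons passed. For KD less WT, scaling gave log2 ratios at 25 min of 0.0350 (110 to 120 kb) and 0.0696 (whole profile), and whole-profile scaling gave a gain difference of −0.191 and a 50% distance difference of −3.92 kb, and no share beyond 80 kb, since the summed gain was not positive in each series. Other settings kept the direction of these means. With equal depth over 110 to 120 kb they were 0.0921 in the gain over 0 min, 9.28 points in the share and 2.92 kb in the distance. The distance differed by 2.74 kb with the length correction, and by 4.55 and 1.14 kb at heights of 25% and 75%. In each of these settings the clones still had opposite signs, but in others they did not. Measured over the 10 min profile, the gain was larger in KD of both clones, by 0.0640 (clone 15) and 0.00731 (clone 18). Whole-profile scaling made the gain difference negative for both, −0.224 and −0.159, and likewise the distance, −6.41 and −1.42 kb. Both scalings made the 25 min log2 ratio positive for both, 0.0410 and 0.0290 (110 to 120 kb), 0.0829 and 0.0563 (whole profile).

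Leaving out clones or series, KD less WT ranged from −0.0320 to 0.0208 (log2) at 25 min, −0.0134 to 0.225 at 40 min, −0.0926 to 0.227 in gain, −2.02 to 5.37 points in outer share and −3.21 to 4.44 kb in 50% distance. The gain over 0 min ranged from 0.601 to 0.828, that over 25 min from 0.450 to 0.670, the change to 25 min from 0.136 to 0.175 and the slope change from −0.333 to −0.277, none past the threshold, which the exact permutation test cannot reach with 3 or 2 samples a time (smallest p = 0.1). Of 88 values under other settings 7 changed direction, as did 9 of 96 with samples left out, and the cause was not tested. The 88 include settings that change the pairing alone, where the value cannot change direction, so the 7 are no rate of robustness.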
